A study of Mus musculus with 3 samples.

Results

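Syndecans and glypicans are the main families of cell surface heparan sulphate proteoglycans, and 8 of their genes were followed here: Sdc1, Sdc2, Sdc3, Sdc4, Gpc1, Gpc3, Gpc4 and Gpc6. They were taken from 18194 named genes as every probe set annotated to exactly one of these symbols, which gave 22 probe sets. The family was picked by name, but with earlier ratios of these same arrays known, Sdc1 among them, so all values are descriptions and none is a test. Of the 8 genes, 6 had a signal above the floor and were compared. Gpc3 and Gpc6 were not.

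The cells were CT26.WT, a colon carcinoma line of the mouse, and each group was a single culture read on a single Affymetrix Mouse Genome 430 2.0 array. All labels describe the same line. The S100a8 group and the S100a9 group received that recombinant mouse protein at 4 µg/ml for 24 h, after 12 h in medium without serum. S100a8 and S100a9 are calcium-binding proteins that myeloid cells release during inflammation. The control group is annotated in conflicting ways, as albumin (BSA) in one label and as normal saline in another. Neither a time nor a step without serum is recorded for it. With 1 array per group there was no replicate error and no p-value, and a difference between arrays cannot be told apart from a difference between cultures. In such bulk RNA, fewer cells carrying a transcript and less transcript per cell cannot be told apart either.

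The protein part of a syndecan crosses the membrane and ends in a short cytoplasmic tail that binds scaffold proteins, whereas a glypican is tied to the outer leaflet by a lipid anchor. Both carry long heparan sulphate chains whose sulphated stretches bind growth factors, chemokines and matrix proteins. Syndecan-1 is typical of epithelia and plasma cells, syndecan-2 of mesenchymal cells, syndecan-3 of neural tissue, and syndecan-4 is widely made and sits at focal adhesions. The outer parts can be cut off by metalloproteinases, which leaves soluble proteoglycan in the medium.

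The promoters of Sdc1 and Sdc4 are shown first, since these are the members with the highest and the lowest ratio to control with S100a8 and the only ones with a probe set, above the floor on all arrays, at least 1.5-fold from control. Each stretch is the 250 bases before the annotated start in RefSeq on GRCm38.p6, in the direction of transcription. Capitals mark GGGCGG, the core of the GC box bound by Sp1, and the NF-kB site consensus, on either strand. Sdc1 lies on the plus strand (chr12:8771146-8771395) and Sdc4 on the minus strand (chr2:164443189-164443438).
Sdc1: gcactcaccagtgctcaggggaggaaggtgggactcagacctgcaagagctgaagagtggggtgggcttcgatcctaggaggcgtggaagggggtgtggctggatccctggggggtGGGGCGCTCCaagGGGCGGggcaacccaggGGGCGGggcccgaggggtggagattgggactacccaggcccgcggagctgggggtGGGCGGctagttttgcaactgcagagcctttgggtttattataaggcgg
Sdc4: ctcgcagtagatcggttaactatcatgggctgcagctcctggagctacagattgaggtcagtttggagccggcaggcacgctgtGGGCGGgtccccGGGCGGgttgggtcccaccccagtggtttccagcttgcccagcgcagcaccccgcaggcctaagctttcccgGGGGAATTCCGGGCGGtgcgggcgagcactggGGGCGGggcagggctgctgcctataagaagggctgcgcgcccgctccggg
Both stretches held 1 match to the NF-kB consensus, which 7.25% of the 32851 promoter stretches of this length in the RefSeq table had. GGGCGG occurred 3 times before Sdc1 and 4 times before Sdc4, and 32.7% of all stretches held it at least once. Before Sdc4, 1 of these GGGCGG matches directly adjoins the NF-kB match. TGACTCA, the AP-1 site, was in neither, against 4.46% of all stretches. The table held an entry for 5 of the 8 genes, and those of Sdc3, Gpc3 and Gpc4 had no match to the NF-kB consensus. The match is a run of letters and was not shown to be bound in these cells.

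The signals are MAS5 intensities in arbitrary units, and the floor was 76.0, the 50th percentile of all non-control values. Of the 22 probe sets, 12 lay above it on all 3 arrays, 8 on no array, and 2, both of Gpc6, on the S100a8 array alone. The median signals were 78.6 (S100a8), 73.6 (S100a9) and 76.1 (control), and the 18 spike-ins added at hybridization were level, with median log2 ratios to control of 0.02 (S100a8) and −0.01 (S100a9). The 24 poly-A spike-ins, which go in before labelling, had 0.12 and 0.28. Dim genes were shifted on the S100a8 array: the dimmest 25% of the compared genes had a median log2 ratio to control of 0.14, against −0.01 for the others. With S100a9 the same medians were 0.00 and 0.01. Of 12 markers of an epithelium 5 were compared. Cdh1 (E-cadherin), Krt19 and Vil1 lay below the floor on each array, whereas Krt18 and Krt20 lay above it (1447 and 326 in the control). Of 12 mesenchymal markers 9 were compared, and Thy1, Lum and Acta2 lay below the floor on each array. The mesenchymal filament gene Vim gave 15811 with S100a8, 15407 with S100a9, against 16033 in the control.

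**Figure D1:**
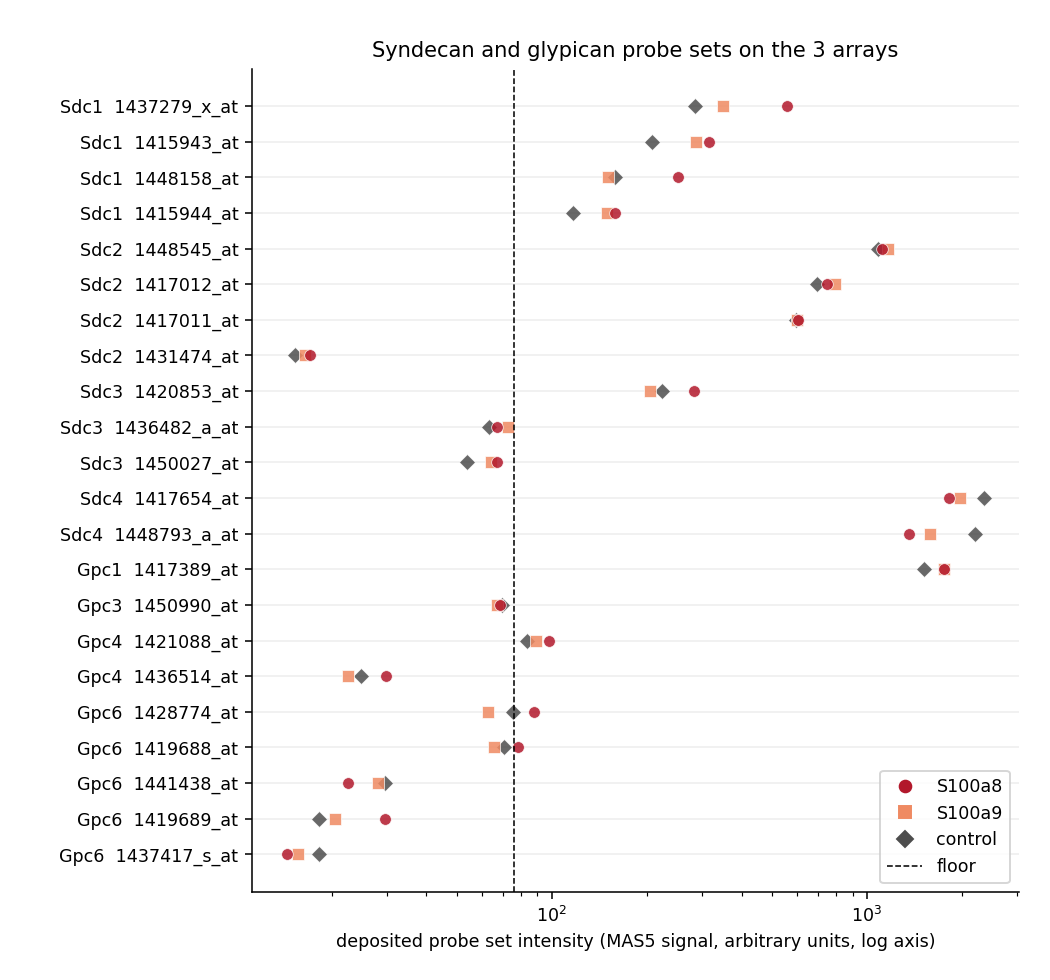
Deposited intensities (MAS5 signal, log axis) of the 22 probe sets of the 8 genes, one row per probe set, with the S100a8, S100a9 and control arrays as separate symbols and the floor as a dashed line. The Sdc1 rows have the S100a8 array furthest right, the Sdc4 rows have the control array furthest right, and the Gpc3 row lies left of the floor.

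Syndecan-1 transcript was higher in S100a8-treated cells than in control cells on all 4 of its probe sets, and syndecan-4 transcript was lower on both of its own. The brightest Sdc1 probe set was 1.95-fold above control and the brighter Sdc4 probe set 1.29-fold below it. Among 11139 compared genes Sdc1 had the 6th highest ratio for S100a8 over control, by its brightest probe set (log2 ratio 0.96). The rank depends on that probe set, since its others gave log2 ratios of 0.60, 0.66 and 0.45. The median log2 ratio was 0.22 over the compared members and 0.01 over all compared genes. Of the members 5 were higher and 1 was lower, where 52.5% of all compared genes were higher. The small ratios in this count are not firm: the members' median was 0.11 with the probe sets of each gene averaged (5 members compared). Sdc2, the higher member nearest to control, was at −0.003 after median centring. Sdc1 was the 1 member at least 1.5-fold higher, a size reached upward by 1.13% of all compared genes. No member's representing probe set was as far below control (0 of 6), and 1.91% of all genes were.

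Sdc1 encodes the syndecan that binds growth factors and matrix at the basolateral face of epithelial cells. Its brightest probe set, 1437279_x_at, gave 557 with S100a8, 349 with S100a9, against 285 in the control. The _x_at ending marks probes that can also bind other transcripts. The plain probe set 1415943_at gave 316 with S100a8, 286 with S100a9, against 208 in the control. On 1448158_at the signals were 251, 151 and 159, and on 1415944_at they were 159, 150 and 117, in the same order of arrays. The S100a8 array was thus the highest on each of the 4, while the S100a9 array lay above the control on 3 and slightly below it on 1448158_at. As folds over control, the 4 probe sets gave 1.95, 1.52, 1.58 and 1.37 for S100a8, so 3 of them passed 1.5-fold.

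The S100a9 side of Sdc1 depended on the probe set. The log2 ratios of S100a9 over control were 0.29 (1437279_x_at), 0.46 (1415943_at), −0.07 (1448158_at) and 0.36 (1415944_at). Set against the S100a8 array, the S100a9 signal was 1.60-fold lower on 1437279_x_at and 1.67-fold lower on 1448158_at. It was only 1.10-fold lower on 1415943_at and 1.06-fold lower on 1415944_at. By these values, and grouped after they were seen, the probe sets formed 2 pairs, one with the arrays of the proteins within 1.10-fold and one with S100a9 at least 1.60-fold below S100a8. Which part of the transcript each probe set reads is not given in the sources used here. For comparison, over 4705 genes with 2 or more probe sets above the floor on all arrays, the 2 brightest of a gene differed by a median of 0.13 in this log2 ratio, and the 90th percentile was 0.38. The 2 brightest Sdc1 probe sets differed by 0.53.

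Sdc4 encodes the syndecan of focal adhesions, which acts with integrins and protein kinase C alpha. Its probe set 1417654_at gave 1824 with S100a8, 1968 with S100a9, against 2346 in the control. The other, 1448793_a_at, gave 1359 with S100a8, 1586 with S100a9, against 2203 in the control. On both the control array was the highest and the S100a8 array the lowest. With S100a8 the signal was 1.29-fold lower on the first and 1.62-fold lower on the second, and with S100a9 it was 1.19-fold and 1.39-fold lower. The S100a8 ratios of this pair differed by 0.33 on the log2 scale, while over those 4705 genes the median difference of the 2 brightest was 0.14 and the 90th percentile 0.45. By its representing probe set Sdc4 ranked 700th from the lowest of 11139 genes with S100a8 and 936th with S100a9.

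**Figure D2:**
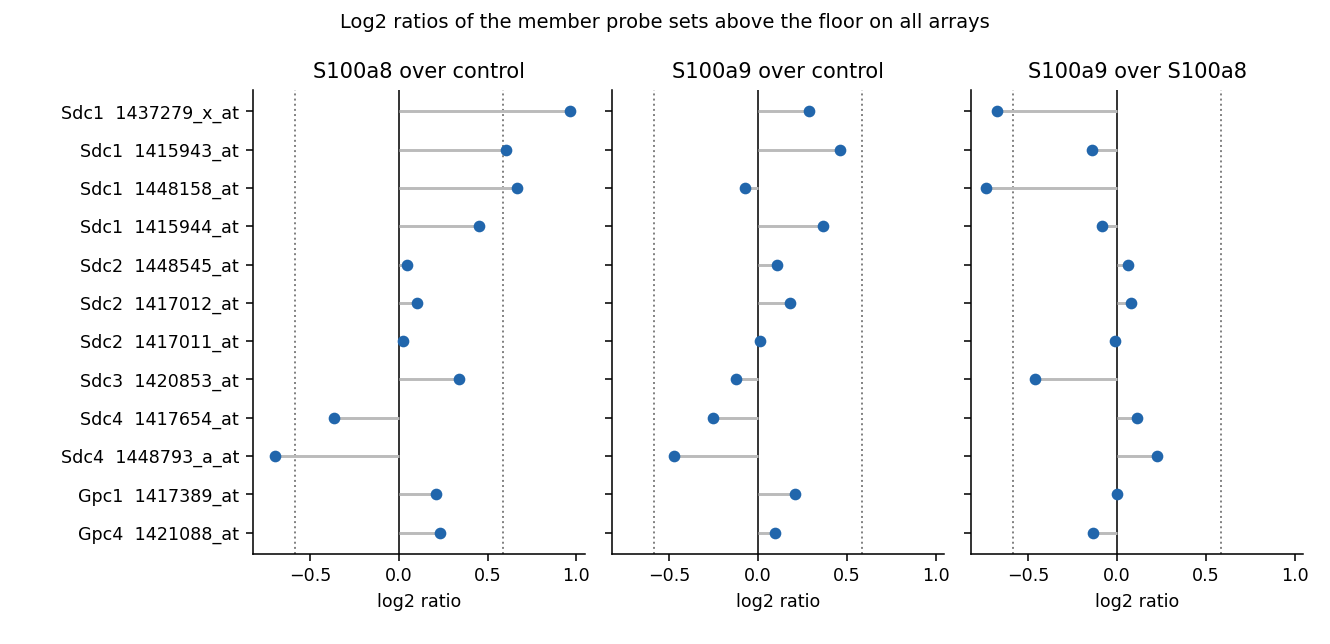
Log2 ratios of the 12 member probe sets above the floor on all arrays, with a panel each for S100a8 over control, S100a9 over control and S100a9 over S100a8; dotted lines mark 1.5-fold. In the first panel 4 Sdc1 probe sets lie right of zero and 2 Sdc4 probe sets left of it, and in the third panel 2 Sdc1 probe sets pass the left dotted line.

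Sdc2, a syndecan of mesenchymal cells, was nearly level over the arrays. Its brightest probe set, 1448545_at, had 1119 with S100a8, 1168 with S100a9, against 1086 in the control. The 3 probe sets above the floor had log2 ratios of 0.02 to 0.10 for S100a8 and 0.01 to 0.18 for S100a9 over control. The fourth, 1431474_at, stayed below the floor with signals of 15.3 to 17.1.

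Sdc3, first known from neural tissue, gave 283 with S100a8, 205 with S100a9, against 224 in the control on 1420853_at. The S100a8 array was the high one, with a log2 ratio of 0.34, while S100a9 over control was −0.12. S100a9 over S100a8 was −0.46, the next lowest among the members after Sdc1. The 2 other Sdc3 probe sets lay below the floor throughout, at 53.8 to 72.8, so this value rests on a single probe set.

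Among the glypicans only Gpc1 was bright. Gpc1, a co-receptor for fibroblast growth factors, gave 1753 with S100a8, 1753 with S100a9, against 1516 in the control. Both treated arrays were 1.16-fold above control, and S100a9 over S100a8 was −0.0004 on the log2 scale. Gpc4, known as a modulator of growth factor and Wnt signalling, had dim signals of 98.2, 89.3 and 83.5 on the same arrays. Its log2 ratio for S100a8 was 0.23, and 0.04 when ratios were centred within bins of similar brightness, a setting chosen after the shift of dim genes was seen. A second Gpc4 probe set gave 22.6 to 29.8.

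Gpc3, the oncofetal glypican of liver and embryonic tissue, lay below the floor with 68.6, 66.8 and 69.4 in S100a8, S100a9 and control cells. Gpc6 had its brightest probe set at 87.7 with S100a8, 62.7 with S100a9, against 75.4 in the control, a mean under the floor. Its 4 other probe sets ranged from 14.4 to 78.4. The glypicans outside the 8 genes, Gpc2 and Gpc5, gave 10.3 to 16.9 and 4.06 to 5.85. A MAS5 signal under the floor gives no order between arrays and does not show that a transcript was absent.

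With S100a9, 4 of the 6 compared members were higher than control and 2 lower, where 51.2% of all compared genes were higher. The median log2 ratio was 0.10 over the members and 0.00 over all compared genes. None of the 6 was at least 1.5-fold higher (0.251% of all compared genes) or lower (0.853%). The highest was Sdc1 at 0.29 and the lowest Sdc4 at −0.25. Between the proteins, S100a9 over S100a8 had a median of −0.07 over the members and 0.02 over all genes. Here Sdc1 was the 1 member at least 1.5-fold lower, as were 1.01% of all genes, and 0 members were as far above, as were 0.0988%. The ratios of both proteins use the same control array, so their likeness is not independent.

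**Figure D3:**
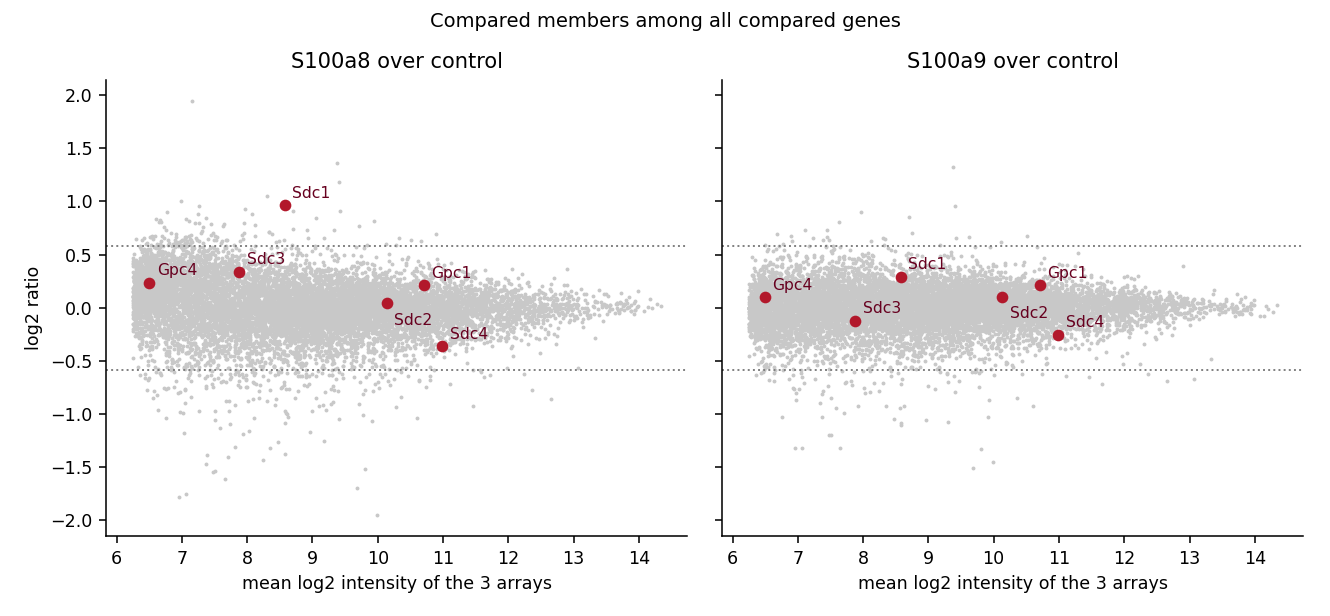
Log2 ratio against mean log2 intensity for the 11139 compared genes (grey), with the 6 compared members named, for S100a8 over control and S100a9 over control; dotted lines mark 1.5-fold. Sdc1 stands above the upper line with S100a8 (0.96) and below it with S100a9 (0.29), while the other members lie between the lines.

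The genes that build, sulphate and break down the chains did not differ by 1.5-fold with either protein on the probe sets that represent them, a size reached in either direction by 3.04% of all compared genes with S100a8 and 1.1% with S100a9. Of 42 listed, 29 were compared, and 19 were higher and 10 lower than control with S100a8, as with S100a9, with medians of 0.09 and 0.04. In the same comparisons 52.5% and 51.2% of all genes were higher. Among linker and chain synthesis genes, Ext1, a subunit of the chain polymerase, had the lowest ratio. It gave 934 with S100a8, 1050 with S100a9, against 1245 in the control, log2 ratios of −0.41 and −0.25. Its partner subunit Ext2 was at 0.09 and 0.01. Xylt2, which starts the linker, was at −0.23 and −0.16, with the S100a8 signal under the floor. Extl1 (0.42) and Extl3 (0.14), related glycosyltransferases, were highest with S100a8.

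The sulphation list had a median of 0.17 with S100a8 and 0.04 with S100a9 (10 compared). Hs3st3b1 and Hs3st6, which add the rare 3-O-sulphate, were at 0.45 and 0.43 with S100a8, from dim control signals of 119 and 80.7. Ndst2, an N-deacetylase and N-sulphotransferase, was at −0.34 with S100a8 and −0.22 with S100a9, and Hs6st1 was at −0.01 and −0.11. The editing and breakdown list had medians of 0.21 and 0.15. With S100a9, 7 of its 8 compared genes were higher, as were 51.2% of all compared genes. Hgsnat, a lysosomal acetyltransferase of heparan sulphate degradation, gave 928 with S100a8, 948 with S100a9, against 696 in the control. Idua, the lysosomal iduronidase, was at 0.35 and 0.14. The extracellular enzymes Hpse (heparanase, −0.11 and 0.003) and Sulf2 (a 6-O-endosulphatase, −0.08 and −0.09) were near control.

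Of 12 listed sheddases and related release genes, 6 were compared. Adam17, a sheddase of syndecan ectodomains, was lower on each of its 3 probe sets above the floor. They gave log2 ratios of −0.36, −0.71 and −0.30 with S100a8 and −0.28, −0.34 and −0.13 with S100a9, for 1421858_at, 1421857_at and 1421859_at. Adam10 was at 0.14 and 0.04 and the proprotein convertase gene Furin at −0.22 and 0.02. The membrane metalloproteinase gene Mmp16 was the 1 gene of this list at least 1.5-fold above control with S100a8 (log2 ratio 0.73), as were 1.13% of all compared genes. Its control signal of 82.3 was close to the floor. Mmp9, a gelatinase, had 156 with S100a8, 101 with S100a9, against 104 in the control. It was the 1 gene of this list at least 1.5-fold lower with S100a9 than with S100a8 (−0.63), as were 1.01% of all compared genes.

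All 11 genes of proteins that bind or act on syndecan tails were compared, with medians of 0.05 for both proteins. By their brightest probe sets 0 were past 1.5-fold, as were only 3.04% of all compared genes with S100a8 and 1.1% with S100a9. Sdcbp, syntenin, which binds the tail end, gave 5514, 5772 and 5581 in S100a8, S100a9 and control cells. By these probe sets the tyrosine kinase gene Src was highest with S100a8 (0.30) and Rab5a, a regulator of endosomes, lowest (−0.11). Prkca (protein kinase C alpha) was at 0.09 on its brightest probe set, with 2 others at −0.17 and −0.23, and the adaptor gene Gipc1 was at −0.04. Other genes of this list also had probe sets above the floor that disagreed with S100a8. Cttn was at 0.09 on its brightest and at −0.47, −0.47 and −0.12 on the others. Ezr was at 0.08 and −0.32, and Pdcd6ip at 0.08, with others from −0.24 to 0.31.

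Among 18 genes of heparan sulphate binding growth factors and their receptors, 7 were compared, with medians of −0.08 and −0.12. Bmp2, a bone morphogenetic protein, was the 1 gene at least 1.5-fold below control with S100a8, as were 1.91% of all compared genes. It gave 230 with S100a8, 265 with S100a9, against 352 in the control. Hbegf, the heparin-binding ligand of the EGF receptor, was at −0.43 and −0.35. Met, the receptor of hepatocyte growth factor, was at 0.35 and 0.26, and Fgfr4 at 0.37 and −0.12. Of the other proteoglycans and carriers, 6 of 7 compared were lower with S100a8 and with S100a9, as were 47.5% and 48.1% of all compared genes. Tgfbr3, betaglycan, was at −0.36 and −0.15 on its brightest probe set, although a second went to 0.15 with S100a8. Hspg2, perlecan, was at −0.20 on one probe set and 0.40 on another, and Cd44 was at −0.05. Cspg4, a chondroitin sulphate proteoglycan, was at 0.38 from a dim control signal of 102.

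**Figure D4:**
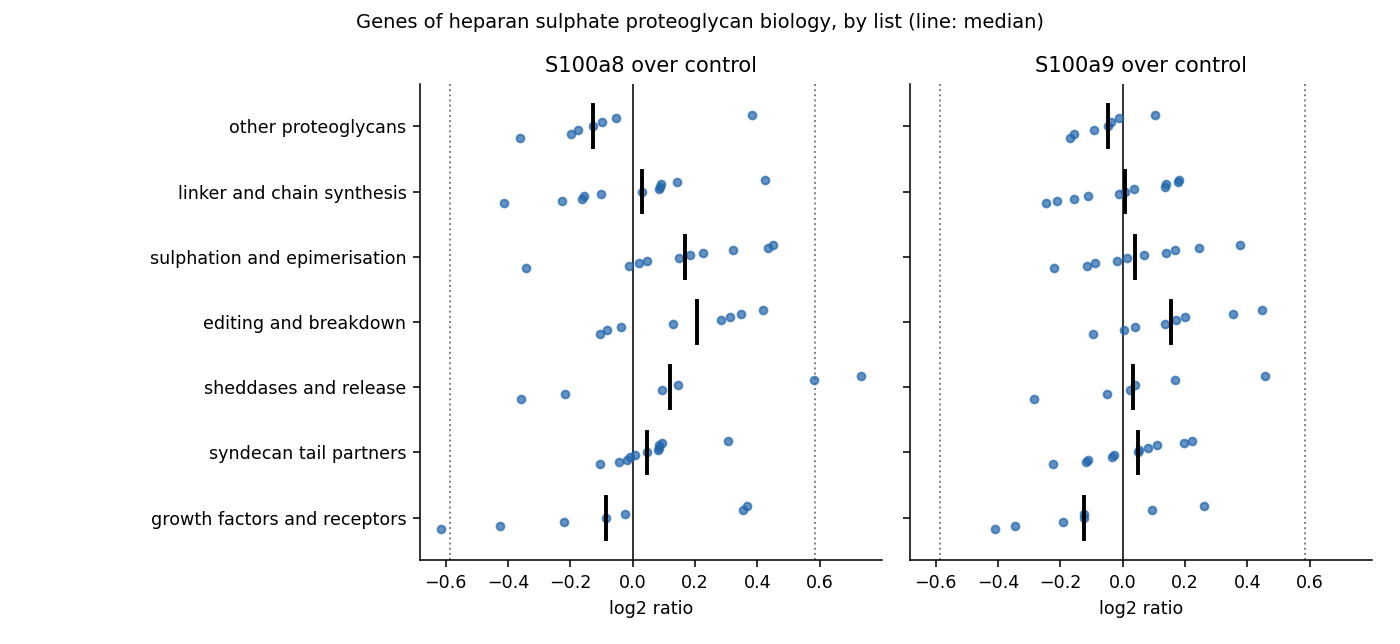
Log2 ratios of the compared genes of 7 lists of heparan sulphate proteoglycan biology, for S100a8 over control and S100a9 over control, 1 point per gene, with the list median as a black line and 1.5-fold as dotted lines. Most points lie between the dotted lines, with Mmp16 beyond the right one and Bmp2 beyond the left one in the S100a8 panel.

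Markers of other cells that carry syndecans were read beside the Sdc1 values. Of 9 plasma cell markers with a probe set, 2 were compared, Xbp1 (−0.19 with S100a8) and Tnfrsf17 (0.08). Jchain, Pou2af1 and Cd79a were below the floor on each array. The summed plasma cell marker signal was 1861 with S100a8, 1683 with S100a9, against 2089 in the control. Most of it was Xbp1, which alone gave 1497, 1342 and 1708 on these arrays. Epithelial markers had summed signals of 2067, 2140 and 2377 in the same order. Krt18 was the largest single part of these sums, at 1032, 1236 and 1447. By ratio to control, 3 epithelial markers lay above and 2 below for S100a8 (median 0.16). For S100a9, 1 lay above and 4 below (median −0.23). Across the settings tried, the S100a8 median ran from −0.29 to 0.16, so its sign is not firm. Of the 5 compared, Cldn3, a tight junction gene, was highest with S100a8 (0.48, with signals of 188 against 134). It was at least 1.5-fold lower with S100a9 than with S100a8 (−0.80), as were 1.01% of all compared genes. The Cldn3 values rest on 1451701_x_at alone and those of Epcam on 1447899_x_at, with the ending of probes that can also bind other transcripts. Krt18, a keratin, was lowest with S100a8 (−0.49), and Cdx2 and Krt20 were at 0.28 and −0.09. Myeloid markers had 7 of 11 compared, with medians of 0.38 and 0.23, and summed signals of 2563, 2780 and 2499. The 0.38 is the ratio of Fcer1g, which passed the floor on the S100a8 array alone (98.9, against 72.3 in the control) and is set against the floor. Ptprc (CD45) and Itgam stayed under the floor on all arrays. Cd68 (0.63 with S100a8) and Cd53 (0.59 with S100a9) were at least 1.5-fold higher, as were 1.13% and 0.251% of all compared genes. Lyz2 was at 0.20 with S100a8 and the endotoxin co-receptor gene Cd14 at −0.39. Endothelial markers had 3 of 8 compared, with medians of 0.27 and 0.003 (Esam 0.44 and Kdr 0.10 with S100a8), and summed signals of 507, 451 and 437. Mesenchymal markers had 9 of 12 compared, and summed signals of 35394, 36700 and 37644. By their brightest probe sets all 9 were lower with S100a8, as were 47.5% of all compared genes, with a median of −0.14. With S100a9, 2 were higher and 7 lower, where 48.1% of all compared genes were lower, and the median was −0.06. Of the 9, Pdgfrb (−0.92), Dcn (−0.92) and Pdgfra (−0.69) were at least 1.5-fold lower with S100a8, as were 1.91% of all compared genes. Vim and Col1a2 were at −0.02. A second, dim Pdgfra probe set went the other way (94.2 with S100a8, against 80.4 in the control). Further probe sets above the floor were higher with S100a8 for Vim (0.07 and 0.09) and Cdh2 (0.22). They were lower for Fn1 (−1.28), Pdgfrb (−1.03) and Col3a1 (−0.03), and those of Col1a2 were at 0.28 and −1.20. The part of these markers, and of the shift of dim genes, in the syndecan ratios was not tested.

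The genes whose ratios to control lay nearest to those of Sdc1 were sought among 10716 genes above the floor on all arrays, by the Euclidean distance in the S100a8 and S100a9 log2 ratios. They were Plb1 (distance 0.12), Gstp3 (0.16), Fgf4 (0.16), Afp (0.16) and Tesmin (0.17), after 2 clone-named genes were passed over. Plb1 is a phospholipase, Afp a fetal plasma protein and Fgf4 a fibroblast growth factor. Fgf4 was dim (136 with S100a8, 88.0 with S100a9, against 76.7 in the control). Gstp3, Plb1 and Tesmin also had low control signals, of 78.6, 112 and 115, whereas Afp was brighter (715, 525 and 399). The distances use the Sdc1 ratios of 1437279_x_at (0.96 and 0.29), while 1415943_at had 0.60 and 0.46. For Sdc4 the nearest were Abhd1, Nsrp1, Mndal, Kin and Ski, at distances of 0.009 to 0.016. Ski, a SMAD corepressor, had 731 with S100a8, 780 with S100a9, against 930 in the control. These are likenesses over 3 arrays and 2 ratios that share a control.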

How the data were processed

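Total RNA of 3 CT26.WT cultures was read on 1 array each; per the labels' protocols, biotinylated cRNA was made from 1 µg of RNA. The deposited intensities are linear probe set signals, and the submitters' processing notes name MAS5 as the tool. Its version and scaling target are not given in these sources. Since the tool takes away mismatch signal, dim values are noisy, and a shared scale hides a change in total RNA. Genes were named from the platform annotation (34958 probe sets with 1 symbol; 932 with several, left out).

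Values were kept at the deposited scale, set to the floor where lower (76.0), and log2 was taken in Python 3.11.15 with pandas 2.3.3. The brightest probe set by mean log2 intensity stood for a gene, and only genes whose mean exceeded the floor were compared. At least 1.5-fold was the counted size. No test was possible with 1 array per group. The number of arrays limits the precision. Scripts were tested on simulated data. The members and the 12 lists were chosen with earlier results of these data known. Named genes were all members, the 2 highest and 2 lowest S100a8 ratios of each list, list genes past 1.5-fold, and the 5 nearest genes to the highest and lowest member; others were named after their values were seen. Protein sequences were not used here. The alternatives tried were quantile normalization, median centring, a floor at the 30th or the 65th percentile, log2(value + 1) with no floor, no filter, other choices of probe set and a 2-fold size, with centring in 20 brightness bins added after the data were seen.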

Additional observations from a re-analysis of the deposited data

How the results depend on the processing

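The direction of Sdc1 (higher) and Sdc4 (lower) against control held under all 9 settings that recompute a ratio, for both proteins. Sdc1 over control ran from 0.60 to 1.03 with S100a8 and from 0.26 to 0.46 with S100a9, and Sdc4 from −0.53 to −0.35 and from −0.36 to −0.21. With a 2-fold size, 0 members in place of 1 were higher with S100a8. The 1 member lower with S100a9 than with S100a8, Sdc1, left that count, giving 0, under median centring, with a gene's probe sets averaged, when probe sets ending in _x_at or _s_at came last, and at the 2-fold size. Its log2 ratio was −0.41 when averaged and −0.14 on the plain probe set. Over all genes, S100a8 against control had 126 higher and 213 lower. These became 86 and 278 with median centring, 150 and 187 with quantile normalization, and 79 and 250 with brightness bins. The number higher was 266 with the lower floor, 48 with the higher floor and 54 with averaged probe sets, and a 2-fold size left 5 higher and 32 lower. S100a9 against control had 28 higher and 95 lower, and median centring gave 43 and 68, quantile normalization 40 and 78. The number higher was 49 and 15 with the lower and higher floor and 17 with averaged probe sets, and the 2-fold size left 1 and 16. S100a9 against S100a8 had 11 higher and 112 lower, against 26 and 50 with median centring, 17 and 80 with quantile normalization and 25 and 64 with brightness bins. The floors gave 20 and 244 (lower) and 5 and 25 (higher), averaged probe sets 47 lower, and the 2-fold size 0 and 2. The cause of these differences was not tested. No paired analysis was possible because each group has 1 array. The S100a8 median of the members ran from 0.11 to 0.22, and Sdc2 from −0.003 to 0.08. Signals under the floor (Gpc3, most of Gpc6) cannot be ordered between arrays, and Gpc4 lies close above it.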

Other observations

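Of the matrix genes among the mesenchymal markers, Fn1 and Col1a2 had probe sets that disagreed widely, while those of Col3a1 were closer (−0.28 and −0.03 with S100a8). The following were named after their values were seen. Fn1, fibronectin, a matrix ligand of syndecan chains, gave 7419 with S100a8, 7882 with S100a9, against 8154 in the control on 1426642_at, so that the arrays were close, with the control slightly the highest. On 1437218_at it gave 223 with S100a8, 244 with S100a9, against 542 in the control, which is 2.43-fold lower with S100a8 and 2.22-fold lower with S100a9. Col1a2, a collagen I chain, had 3 probe sets above the floor that did not go one way. It gave 7385, 7839 and 7467 on 1450857_a_at, in the order S100a8, S100a9 and control, but 89.9, 102 and 206 on 1446326_at. On 1423110_at it gave 2601, 2491 and 2144, with the control the lowest array. The dimmest of these, 1446326_at, was 2.29-fold lower with S100a8 and 2.01-fold lower with S100a9. In both Fn1 and Col1a2 the control signal was more than 2-fold above the S100a8 signal on the dimmest probe set above the floor and on none of the brighter ones. Which transcripts or transcript parts these probe sets read, the sources used here do not say.

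The chain sulphotransferase gene Hs2st1 had a similar but smaller difference on the dimmest of its 4 probe sets above the floor. There 1440905_at gave 144 with S100a8, 175 with S100a9, against 223 in the control, 1.55-fold and 1.27-fold lower, whereas the brightest, 1450729_at, was 1.14-fold and 1.12-fold higher. Pdgfrb, a platelet-derived growth factor receptor, was in contrast lower on both of its probe sets above the floor. Their log2 ratios were −0.92 and −1.03 for S100a8 and −0.76 and −0.55 for S100a9. These values rest on single arrays and were not tested.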
